A study of Homo sapiens with 9 samples.

Results

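The comparison described here sets MDA-MB-231 cells that had lost most of their ACSL4 RNA directly against MDA-MB-231 cells given PRGL493, an inhibitor of the ACSL4 enzyme. It asks where removal of the enzyme and inhibition of it left the cells in different states. The members were 6 of the 9 RNA-seq libraries of the series, 3 labelled ACSL4 knockdown and 3 labelled PRGL493 treated, and the 3 control libraries took no part in any test. All 14061 genes that passed a filter on low counts were compared.

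MDA-MB-231 is an established human line of triple-negative breast adenocarcinoma. Knockdown cells were a stable line carrying the lentiviral plasmid pLKO.1-shACSL4, which expresses a short hairpin RNA against ACSL4. PRGL493-treated cells were the stable control line, which carries the empty pLKO.1 vector, after exposure to the inhibitor, and untreated cells of that line were the control. The series describes 3 batches of cells per group. All groups therefore carried a pLKO.1 vector, but the hairpin was present in knockdown cells only and PRGL493 in treated cells only. Neither the dose nor the duration of PRGL493 exposure nor a vehicle is in the labels, which describe a single hairpin construct and do not tie a knockdown batch to a treated batch.

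ACSL4 is a long-chain acyl-CoA synthetase. It joins coenzyme A to arachidonic acid and other polyunsaturated fatty acids, which are then placed into membrane phospholipids, and it is known for making cells sensitive to ferroptosis. Cells adjust the enzymes that make sterols and fatty acids through the SREBP transcription factors, which are held in the endoplasmic reticulum by INSIG proteins when membrane sterols are plentiful, and polyunsaturated fatty acids are known to restrain SREBP-1.

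Counts per library ran from 28673940 to 43027217. A quasi-likelihood test in edgeR gave each gene a log2 fold change, positive where knockdown was higher, and a gene was called at a Benjamini-Hochberg adjusted p below 0.05. Levels are CPM, counts relative to the TMM-scaled total of their library, as mean ± SD over 3 libraries, and the mean of the 3 control libraries is given beside them as a description without a test. The spread behind each p is that between batches of the same engineered cells. VIM, AXL and CD44, mesenchymal and surface markers of this line, ran from 1198 to 1821 CPM over the 6 libraries, while ESR1, PGR, FOXA1 and KRT5 did not exceed 0.156 CPM. Of the other markers listed as high, MSN was at 533 to 728 CPM and EGFR at 173 to 276 CPM. Of those listed as low, ERBB2 was at 68.5 to 105 CPM and GATA3 at 13.5 to 15.3 CPM. CDH1 and TP63 reached 1.93 and 1.42 CPM. Of 25 markers of other lineages 19 were below 1 CPM in all 6 libraries and 6 of those were at 0. The list summed to between 189 and 205 CPM in knockdown libraries, 123 and 135 in PRGL493 libraries and 165 and 179 in control libraries, nearly all of it CD68 and CD14. Of the 7 lineage markers that passed the filter 5 were higher in knockdown and 1 lower (median log2 0.59), with 3 higher by DESeq2, without knockdown replicate 2, and without PRGL493 replicate 1 or 2. Knockdown replicate 2 stood apart by transcript length. Relative to each gene's mean over the 6 libraries, the median log2 level there was 0.167 for short transcripts (up to 2152 bp) and -0.164 for long ones (over 5137 bp), against values between -0.079 and 0.071 in the other 5 libraries. Over all 3 replicates the median log2 fold change was 0.13 for short and -0.10 for long transcripts, and 0.08 and -0.04 without that library. Calls and list values were also computed without that library, and the larger changes are given beside the results. In RNA from bulk cultures, fewer cells of a type and less RNA per cell cannot be told apart.

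The difference that defines the groups was plain in ACSL4 itself. The knockdown libraries held 29.7, 23.9 and 27.8 CPM of it, against 335, 352 and 362 CPM with PRGL493. The groups were far apart, and treated cells were close to the control cells (352 CPM). Knockdown cells held 7.76% of the ACSL4 RNA of treated cells (27.1 ± 2.97 against 350 ± 13.7 CPM, n = 3 each, log2 -3.69, SE 0.08, adjusted p = 1.8e-11). It is a minus-strand gene of chromosome X, from 109641335 to 109733257 on GRCh38, and overlaps KCNE5. As counting by strand is not stated for these data, reads of overlapping genes may be mixed.

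SNAI1, on chromosome 20 from 49982980 to 49988886, encodes SNAIL, the repressor of E-cadherin that the series places downstream of ACSL4. It was low in both groups, at 1.88, 2.52 and 2.17 CPM in knockdown libraries and 2.77, 2.25 and 2.55 CPM in PRGL493 libraries. The groups overlapped, and both were under the control mean of 10.7 CPM. The edgeR test called no difference between them (log2 -0.22, SE 0.17, adjusted p = 0.32). The levels rested on 261 counts in the knockdown libraries together and 259 in the PRGL493 libraries.

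Of the 14061 genes tested, 6516 were called (46.3%), 3150 of them higher in knockdown (22.4%) and 3366 lower (23.9%). Most differences were small. Called genes differed by a median log2 of 0.40 in size, and 4716 of the called genes differed less than 1.5-fold. Differences of at least 2-fold were called for 4.42% of the genes tested, 448 genes higher in knockdown (3.19%) and 174 lower (1.24%), and for genes averaging a log2 CPM of 2 or more there were 125 and 71 of them. Many of the large differences toward higher levels in knockdown thus lay in weakly expressed genes. The CPM values of the groups did not overlap for 7900 genes (56.2%). The first principal component of the 6 libraries carried 63.5% of the variance. Of the calls 48.3% were higher in knockdown, against 58.6% (3881 higher, 2739 lower) when libraries were scaled by upper-quartile factors, which moved the median of all genes from -0.01 to 0.05.

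**Figure D1:**
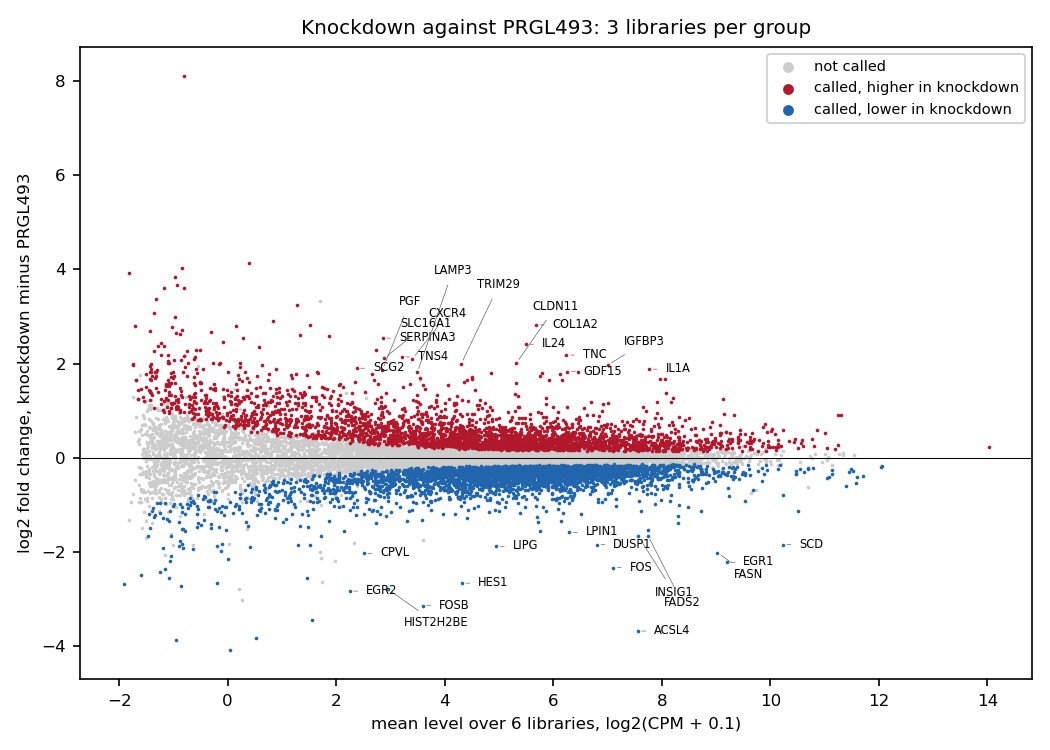
Each point is 1 of the 14061 genes tested, with its mean level over the 6 libraries on the horizontal axis (log2 of CPM + 0.1) and its log2 fold change, knockdown minus PRGL493, on the vertical axis. Red and blue points are genes called higher (3150) and lower (3366) in knockdown, grey points were not called, and labels mark the 15 genes named per direction, with ACSL4 lowest among them at -3.69.

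Among genes averaging a log2 CPM of 2 or more, the 15 furthest above their PRGL493 level in knockdown cells included matrix, cytokine, receptor and junction genes. COL1A2, which encodes a type I collagen chain (chromosome 7, 94394895 to 94431227), stood at 89.9, 88.7 and 91.2 CPM in knockdown libraries and 13.1, 13 and 12.2 CPM in PRGL493 libraries. All knockdown values were above all PRGL493 values, with control cells in between at 22 CPM. This 7.04-fold difference was the largest among the ranked genes that were higher in knockdown (log2 2.82, SE 0.07, adjusted p = 2.3e-11). TNC, the matrix glycoprotein tenascin C, was at 132, 112 and 128 CPM against 28, 27.4 and 26.8 CPM (log2 2.18, SE 0.07, adjusted p = 5.4e-10). Here it was the treated cells that lay away from the control mean of 149 CPM. IL24, a cytokine of the IL-10 family, had the same layout, at 69.7, 82.3 and 74.6 CPM in knockdown, 14.6, 13.5 and 14.5 CPM with PRGL493 and 68.7 CPM in control cells (log2 2.41, SE 0.08, adjusted p = 4.6e-10). The CXCL12 receptor gene CXCR4 had the opposite one, at 16.8, 18.3 and 15.9 CPM in knockdown against 3.43, 3.8 and 4.74 CPM with PRGL493 and 5.19 CPM in control cells (log2 2.10, SE 0.12, adjusted p = 5.2e-08).

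The remaining genes of the upper 15 covered several functions. Secreted factors were SERPINA3, or alpha-1-antichymotrypsin (12.2 ± 0.792 against 2.09 ± 0.107 CPM, log2 2.54), IGFBP3, a carrier of insulin-like growth factors (205 ± 10.3 against 52.3 ± 0.919 CPM, log2 1.97), and IL1A, the interleukin-1 alpha precursor (343 ± 17 against 92.9 ± 2.02 CPM, log2 1.88). PGF, the placental growth factor (log2 1.86), the stress-induced cytokine GDF15 (1.83) and the granin SCG2 (1.90) were also of this kind. Junction and adhesion genes were CLDN11, a claudin of tight junctions (63.8 ± 3.92 against 15.9 ± 0.278 CPM, log2 2.01), and TNS4, a tensin of focal adhesions (14.9 against 3.4 CPM, log2 2.14). TRIM29, a tripartite-motif protein (31.4 against 7.89 CPM, log2 1.99), and LAMP3, a lysosomal membrane protein (17.4 against 4.95 CPM, log2 1.81), completed the set together with SLC16A1, the monocarboxylate transporter MCT1 (11.8 ± 1.2 against 2.75 ± 0.399 CPM, log2 2.11). SLC16A1 overlaps an antisense gene, so its value is uncertain. In each of these 15 genes all 3 knockdown libraries were above all 3 PRGL493 libraries, which the rule for naming them required.

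At the other end, 5 of the 15 genes lowest in knockdown relative to PRGL493 act in lipid synthesis or its control and 5 are immediate early genes or DUSP1. FASN, SCD, INSIG1, FADS2 and LPIN1 made up the first set, and FOSB, EGR2, FOS, EGR1 and DUSP1 the second. The others were ACSL4, HES1, HIST2H2BE, LIPG and CPVL. LIPG, the endothelial lipase on chromosome 18 (49561479 to 49599185), was at 13.5, 13 and 12.8 CPM in knockdown and 48.6, 53 and 44.1 CPM with PRGL493 (log2 -1.89, SE 0.08, adjusted p = 3.9e-09), and the control mean of 25.8 CPM lay between the groups. CPVL, a serine carboxypeptidase, was at 2.18 ± 0.206 against 8.99 ± 0.375 CPM (log2 -2.04, adjusted p = 6.5e-08), with control cells at 9.62 CPM.

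Genes of cholesterol synthesis and uptake were the list with the largest share of members called in a single direction. Of 32 members tested 26 were lower in knockdown and 2 higher, with a median log2 fold change of -0.75 against -0.01 over all genes. INSIG1, the endoplasmic reticulum anchor of the sterol sensor, lies on chromosome 7 (155297878 to 155310235). It was at 89.6, 93 and 89.3 CPM in knockdown and 275, 287 and 304 CPM with PRGL493, a 3.18-fold difference (log2 -1.67, SE 0.06, adjusted p = 7.3e-10). The groups lay on opposite sides of the control mean of 162 CPM. LSS, the lanosterol synthase, had the same arrangement, at 101, 116 and 113 CPM in knockdown, 326, 322 and 306 CPM with PRGL493 and 170 CPM in control cells (log2 -1.53, SE 0.06, adjusted p = 2.6e-09). STARD4, a cytosolic sterol carrier, was at 29.3, 28 and 25.1 CPM against 76.3, 82.5 and 84.3 CPM, with control cells at 65.9 CPM (log2 -1.56, SE 0.07, adjusted p = 9.6e-09). STARD4 overlaps an antisense gene.

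The lower members lay at early, middle and late steps of the synthesis route. HMGCS1, which makes HMG-CoA (log2 -1.09), the mevalonate kinase MVK (-1.11), the isomerase IDI1 (-1.19), and the prenyl and squalene enzymes FDPS (-0.76), FDFT1 (-0.94) and SQLE (-0.97) were all called. So were the late enzymes CYP51A1 (93.9 ± 3.83 against 193 ± 3.34 CPM, -1.04) and DHCR7 (122 ± 4.72 against 269 ± 5.43 CPM, -1.13). SREBF2, which encodes SREBP-2, was at 165, 155 and 177 CPM in knockdown and 285, 288 and 261 CPM with PRGL493 (-0.75, SE 0.06, adjusted p = 2.0e-06). The 2 members called higher were ABCG1, which exports sterol from cells (1.11), and PMVK, the phosphomevalonate kinase (0.37). GGPS1 (-0.09), ABCA1 (-0.11), MYLIP (0.08) and INSIG2 (-0.01) were not called. This list kept 25 or 26 lower and 2 higher calls, with a median between -0.78 and -0.70, in every alternative analysis at an adjusted p below 0.05.

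The promoters of 3 of these genes are shown because the list moved together and its members are textbook targets of SREBP and NF-Y, and NF-Y binds the CCAAT box. They are the 3 members with the smallest adjusted p that had an entry in the RefSeq promoter table (GRCh38.p14), 250 bases before the gene start, 5′ to 3′ on the gene's strand. Capitals mark CCAAT on either strand, read as ATTGG when it lies on the opposite strand.
INSIG1 (chr7:155297628-155297877, plus strand): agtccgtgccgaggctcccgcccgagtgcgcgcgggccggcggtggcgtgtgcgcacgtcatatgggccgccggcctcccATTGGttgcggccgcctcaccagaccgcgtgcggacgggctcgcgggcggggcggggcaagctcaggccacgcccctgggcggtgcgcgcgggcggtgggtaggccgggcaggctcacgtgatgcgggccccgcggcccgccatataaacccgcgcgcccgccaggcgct
LSS (chr21:46228775-46229024, minus strand): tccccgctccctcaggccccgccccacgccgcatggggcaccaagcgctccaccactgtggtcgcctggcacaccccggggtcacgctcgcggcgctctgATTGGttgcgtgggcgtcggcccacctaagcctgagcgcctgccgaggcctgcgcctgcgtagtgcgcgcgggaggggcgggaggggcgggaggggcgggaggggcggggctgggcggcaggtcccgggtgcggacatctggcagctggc
STARD4 (chr5:111512536-111512785, minus strand): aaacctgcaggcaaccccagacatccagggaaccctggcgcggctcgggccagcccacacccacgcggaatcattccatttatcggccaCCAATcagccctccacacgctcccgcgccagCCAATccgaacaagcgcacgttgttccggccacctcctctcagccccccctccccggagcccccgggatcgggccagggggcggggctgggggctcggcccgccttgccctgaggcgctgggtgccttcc
The CCAAT box lay 170 to 166 bases before the start of INSIG1 and 150 to 146 before that of LSS, both on the opposite strand. STARD4 held 2 boxes on its own strand, at 161 to 157 and 130 to 126 bases before the start. Of the list's 24 promoters with an entry, 16 held CCAAT on either strand (66.7%), against 33% of all 27305 promoters in the table and 35% of the 11035 promoters of genes tested. It was not particular to this list: CCAAT was in 57.7% of the tRNA synthetase promoters, 51.9% of those of the ATF4 list, 47.1% in fatty acid synthesis and 45.8% in immediate early genes, among which are lists called mostly in the other direction. The sterol element letters TCACNCCAC, searched on both strands, were found in 1 of the 24 (4.17%) and in 0.875% of all promoters and 0.825% of those of genes tested. A match is a run of letters and not a measured binding site.

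Fatty acid synthesis followed the same direction. Of 21 members tested 16 were lower in knockdown and 2 higher, with a median log2 fold change of -0.55. FASN, the fatty acid synthase on chromosome 17 (82078338 to 82098236), was at 211, 180 and 228 CPM in knockdown and 861, 888 and 761 CPM with PRGL493 (log2 -2.02, SE 0.09, adjusted p = 9.6e-09). SCD, the stearoyl-CoA desaturase, was at 533, 495 and 536 CPM against 1924, 1939 and 1791 CPM (-1.85, SE 0.06, adjusted p = 4.1e-10). In both genes the groups lay on either side of control cells, which held 376 CPM of FASN and 829 CPM of SCD. SREBF1, which encodes SREBP-1, was at 153, 156 and 166 CPM in knockdown and 314, 325 and 297 CPM with PRGL493 (-0.98, SE 0.06, adjusted p = 8.2e-08), around a control mean of 200 CPM. Upstream, ACLY, which makes acetyl-CoA from citrate (290 ± 12.8 against 438 ± 13.7 CPM, -0.60), the citrate carrier SLC25A1 (-0.69), the acetyl-CoA synthetase ACSS2 (56.6 ± 3.45 against 105 ± 4.69 CPM, -0.90) and the carboxylase ACACA (-0.88) were lower as well. The 2 higher members were the thioesterase OLAH (3.37) and the elongase ELOVL7 (0.25). The ELOVL7 call was lost when any 1 library other than knockdown replicate 2 was left out (highest edgeR adjusted p = 0.12), and OLAH was not tested when genes needed at least 1 CPM in 3 libraries, so the list then had 1 higher member.

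**Figure D2:**
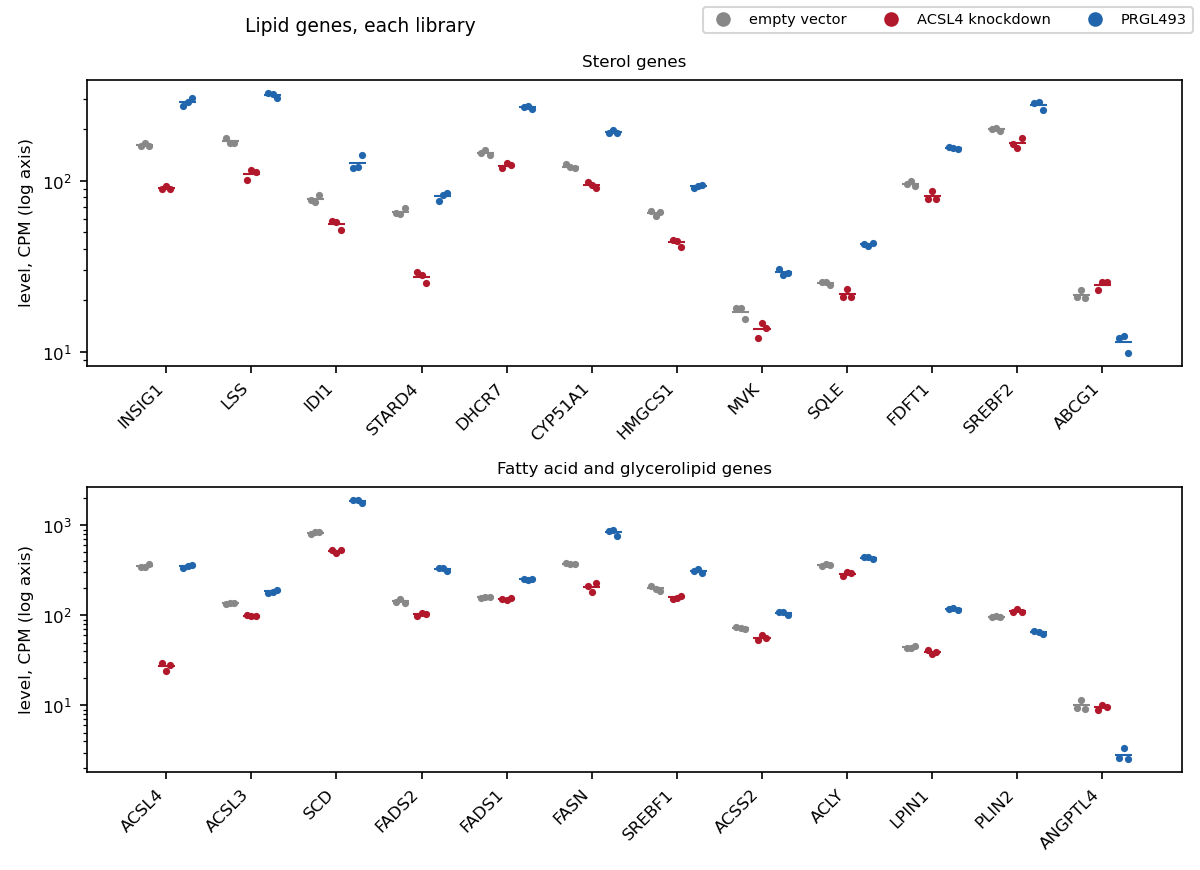
Levels of 12 sterol genes (top) and 12 fatty acid and glycerolipid genes (bottom) in each library, in CPM on a log axis, with 3 points and a mean bar per group for empty-vector control (grey), ACSL4 knockdown (red) and PRGL493 (blue). INSIG1, LSS, SCD and FASN have knockdown points below and PRGL493 points above the control points, while ACSL4 is low in knockdown only and ABCG1, PLIN2 and ANGPTL4 are lowest with PRGL493.

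Another list held the genes that desaturate polyunsaturated fatty acids, the substrates of ACSL4, and place them in phospholipids. Of its 17 members 5 were lower and 0 higher in knockdown (median -0.11), so 29.4% were called against 46.3% of all genes tested, and the 29.4% lower compare with 23.9%. At an unadjusted p below 0.05 edgeR listed 1 higher member, and DESeq2 called 1 higher and limma-voom 0. It had 1 higher without knockdown replicate 1, and 2 higher with a median of -0.04 after removal of the length and GC trend. FADS2, the delta-6 desaturase, was at 98.4, 107 and 104 CPM in knockdown and 333, 333 and 312 CPM with PRGL493 (log2 -1.66, SE 0.06, adjusted p = 7.3e-10), with control cells at 144 CPM. FADS1, the delta-5 desaturase, was at 153 ± 3.05 against 251 ± 1.3 CPM (-0.71), but FADS1 and FADS2 overlap, so their reads may be shared. LPCAT3, which places arachidonate into phospholipids (36.2 ± 1.58 against 52.9 ± 0.353 CPM, -0.55), and the elongase ELOVL5 (-0.25) were the other members with adjusted p below 0.01. Of the 14 acyl-CoA synthetases and fatty acid transport proteins tested, 6 were lower and 3 higher, ACSL4 being 1 of the lower ones. ACSL3, the synthetase of lipid droplets, was at 102, 97.8 and 98.4 CPM against 179, 183 and 192 CPM (-0.89, SE 0.06, adjusted p = 1.4e-07). ACSL1 was not called (-0.15).

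Genes that handle stored lipid went in both directions. Among 22 members of triglyceride synthesis and breakdown 8 were higher and 9 lower, with a median of -0.09 (between -0.13 and 0.01 over the alternatives). LPIN1, a phosphatidate phosphatase, was at 40.9, 37.2 and 39.4 CPM in knockdown, near the control mean of 44.6 CPM, and at 119, 120 and 115 CPM with PRGL493 (log2 -1.59, SE 0.06, adjusted p = 2.0e-09). LPIN2 (-0.47) and LPIN3 (-0.66) were lower too. The droplet proteins PLIN2 (113 ± 6.03 against 65 ± 1.99 CPM, 0.79) and HILPDA (36.8 ± 4.93 against 16.4 ± 0.987 CPM, 1.16) and the lipase inhibitor G0S2 (195 ± 12.3 against 120 ± 3.97 CPM, 0.70) were higher. Textbook PPAR targets showed 10 higher and 4 lower of 21 (median 0.19). ANGPTL4, an inhibitor of lipoprotein lipase, was at 8.83, 10.2 and 9.67 CPM in knockdown, close to control cells (10 CPM), and at 2.59, 3.34 and 2.52 CPM with PRGL493 (1.77, SE 0.13, adjusted p = 4.3e-07). The lipase LPL (10.8 ± 0.329 against 4.19 ± 0.622 CPM, 1.37), the mitochondrial carrier UCP2 (81.8 ± 5.39 against 34.2 ± 0.557 CPM, 1.26) and CPT1A, which carries fatty acids into mitochondria (0.59), were also higher. Fatty acid oxidation as a whole had 10 higher and 8 lower of 30 (median 0.09, but 0.15 without knockdown replicate 1, 0.03 without knockdown replicate 2 and 0.02 after removal of the length and GC trend), with the peroxisomal genes ACOX3 (-0.71) and ACAA1 (-0.74) lower and the mitochondrial gene HADHB higher (0.45). Among the oxidation genes 60% were called, against 46.3% of all genes tested.

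Eicosanoids are made from arachidonic acid, and 7 of 15 members of that list were higher in knockdown and 2 lower (median 0.16, and 0.05 after removal of the length and GC trend). PTGS1, the constitutive cyclooxygenase, was at 21.5, 22.9 and 21.6 CPM against 9.67, 10.5 and 9.19 CPM (log2 1.17, SE 0.08, adjusted p = 3.3e-07), and control cells held 24.5 CPM. The leukotriene-pathway genes ALOX5AP (2.38 ± 0.296 against 0.852 ± 0.185 CPM, 1.48) and LTA4H (232 ± 8.72 against 182 ± 1.83 CPM, 0.35) were higher, and PTGS2, the inducible cyclooxygenase (-1.93), and AKR1C3 (-0.70) were lower. Genes of acetyl-CoA supply, which bears on histone acetylation, had 6 higher and 8 lower of 24 (median -0.06), and 6 and 5 without PRGL493 replicate 3. That median was -0.11 without knockdown replicate 2. The shares of 25% higher and 33.3% lower were not far from the 22.4% and 23.9% of all genes tested.

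Immediate early genes, which growth signals switch on through the MAP kinase route and serum response factor, were lower in knockdown than with PRGL493 in 27 of 34 cases and higher in 2, with a median log2 fold change of -0.64. The higher count was 4 after removal of the length and GC trend. FOS, an AP-1 subunit on chromosome 14 (75278828 to 75282230), was at 48, 41.5 and 46.7 CPM in knockdown and 227, 237 and 227 CPM with PRGL493 (log2 -2.34, SE 0.07, adjusted p = 1.8e-10). Control cells held 320 CPM, above both groups. EGR1, a zinc finger factor, was at 239, 162 and 220 CPM against 972, 1018 and 926 CPM, with control cells at 1912 CPM (-2.23, SE 0.14, adjusted p = 7.7e-06). EGR2, of the same family, was at 1.17, 1.01 and 1.24 CPM against 8.34, 8.33 and 7.82 CPM (-2.84, SE 0.13, adjusted p = 9.5e-09), with control cells at 23.1 CPM. FOSB, another AP-1 subunit, was at 3.17, 1.83 and 2.19 CPM against 20.6, 26.7 and 17.3 CPM (-3.15, SE 0.22, adjusted p = 1.0e-05), with control cells at 202 CPM. For these 4 genes PRGL493 libraries thus lay between knockdown and control.

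Not every member was arranged in that order. JUN, which pairs with FOS, was at 265, 260 and 272 CPM in knockdown and 589, 589 and 563 CPM with PRGL493 (log2 -1.13, SE 0.05, adjusted p = 9.5e-09), and its control mean of 413 CPM fell between them. IER2 (174 ± 7.14 against 457 ± 12.2 CPM, -1.39), BHLHE40 (132 ± 2.52 against 249 ± 10.8 CPM, -0.92), ATF3 (-0.78), JUNB (-0.61) and MYC (-0.45) were lower in knockdown. The 2 higher members were the Kruppel-like factors KLF10 (0.46) and KLF4 (0.32). SRF (-0.15), NR4A2 (-0.22) and IER3 (-0.05) were among the 5 members not called, beside MAFF and FOSL2.

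The EGR1 promoter is shown because EGR1 is the textbook case of a gene driven by serum response factor, which binds the CArG box. It was chosen after its values were seen. Capitals mark the CArG boxes, searched on both strands, in the 250 bases before the gene start (RefSeq, GRCh38.p14).
EGR1 (chr5:138465229-138465478, plus strand): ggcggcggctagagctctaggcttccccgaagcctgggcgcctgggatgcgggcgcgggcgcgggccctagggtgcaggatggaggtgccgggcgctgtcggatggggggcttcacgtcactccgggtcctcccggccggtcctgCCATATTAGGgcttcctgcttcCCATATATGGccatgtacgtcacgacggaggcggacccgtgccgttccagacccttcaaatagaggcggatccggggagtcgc
The boxes lay 105 to 96 and 83 to 74 bases before the start. The CArG pattern searched for is the same on both strands, so no strand is given for them. CArG boxes were found in 2 of 24 promoters of the list (8.33%), in 1.14% of all promoters in the table and in 0.961% of those of genes tested. They were not particular to this list. The cytosolic ribosomal protein list, called mostly in the other direction, held them in 3 of 63 promoters (4.76%). The cholesterol, fatty acid synthesis, ATF4 and tRNA synthetase lists held them in 0.

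Feedback genes of the MAP kinase route had 3 higher and 7 lower of 23 (median -0.13), a called share of 43.5% against 46.3% of all genes tested, and 5 were higher without knockdown replicate 2 or with upper-quartile factors. DUSP1, a phosphatase that switches off MAP kinases, was at 49.2, 52.6 and 43.8 CPM in knockdown and 180, 179 and 167 CPM with PRGL493 (log2 -1.85, SE 0.07, adjusted p = 2.0e-09), both under the control mean of 470 CPM. DUSP6 (119 ± 1.21 against 177 ± 2.46 CPM, -0.57), DUSP10 (-0.65), DUSP4 (-0.30) and the Sprouty gene SPRY2 (-0.35) were lower, whereas ERRFI1, an inhibitor of the EGF receptor, was higher (1195 ± 16.7 against 727 ± 5.55 CPM, 0.72). With the length and GC trend removed this list had 7 higher and 7 lower (median -0.05). In the EGFR family 6 of 16 members were higher and 3 lower (median 0.14), including the ligand NRG1 (35.1 ± 3.11 against 15 ± 1.31 CPM, 1.22), ERBB2 (-0.45) and EGFR itself (-0.34). This family's called share of 56.2% compares with 46.3% of all genes tested. The EGFR call was lost without knockdown replicate 1, without PRGL493 replicate 1 or 2 and after removal of the length and GC trend (highest edgeR adjusted p = 0.13).

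HES1, which encodes a transcriptional repressor induced by Notch (chromosome 3, 194136148 to 194138732), was at 6.63, 4.45 and 5.06 CPM in knockdown and 34.4, 34 and 34.5 CPM with PRGL493 (log2 -2.67, SE 0.11, adjusted p = 3.9e-09). Both groups were far under the control mean of 377 CPM. The Notch list as a whole had no common direction. Of 24 tested, HES1 included, 6 were higher and 4 lower (41.7% called, median -0.06, and -0.11 to -0.02 when 1 library was left out), among them the ligand JAG1 (0.45) and the low-level gene HES7 (1.7 against 0.444 CPM, 1.93), and once the length and GC trend was removed the counts were 10 and 3 with a median of 0.15. YAP and TEAD targets had 8 higher and 10 lower of 28, with a median of -0.00 that ran from -0.07 without knockdown replicate 1 to 0.07 without knockdown replicate 2. CTGF (228, 203 and 206 CPM against 431, 425 and 430 CPM, -1.01, SE 0.06, adjusted p = 6.5e-08) and CYR61 (1857 ± 74.3 against 2469 ± 22.4 CPM, -0.41), both matricellular proteins, were lower, whereas IGFBP3 and tissue factor F3 (0.65) were higher.

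**Figure D3:**
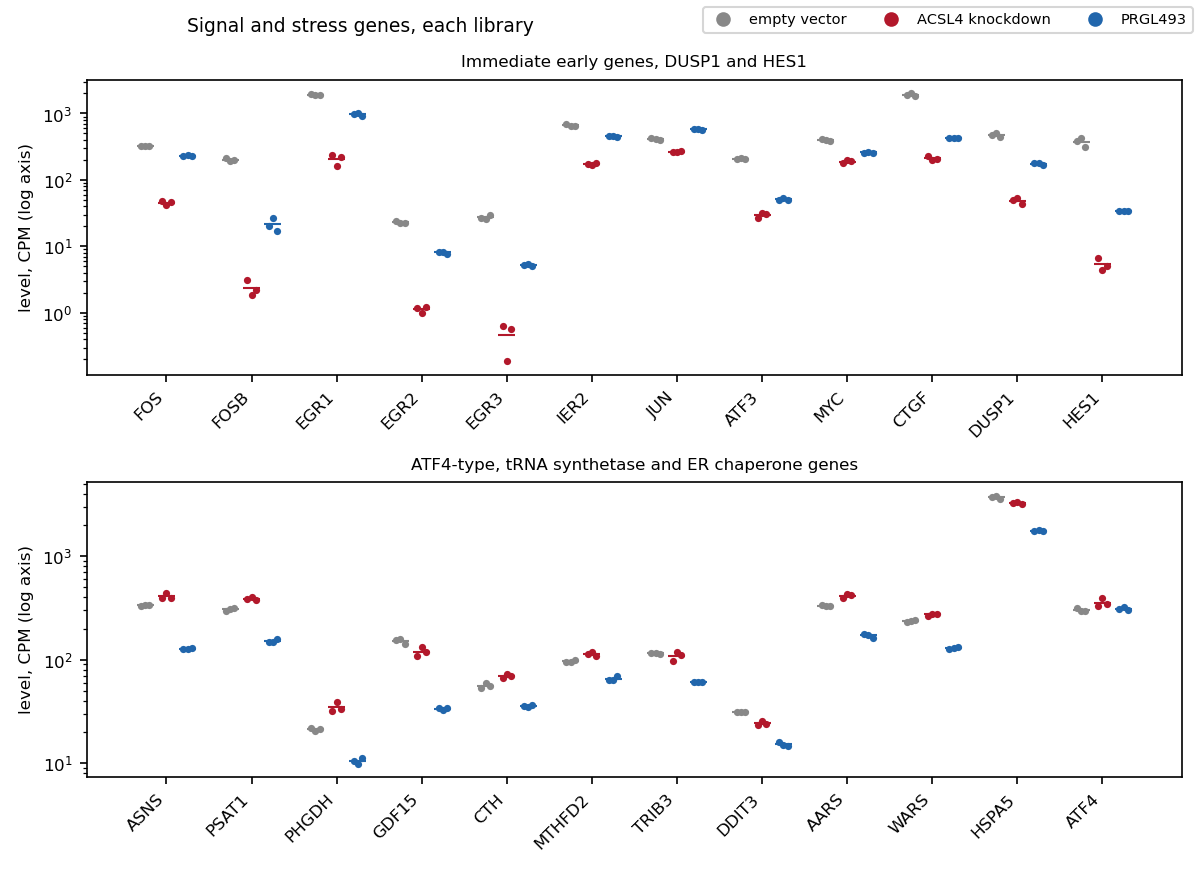
Levels of 12 growth-signal genes (top) and 12 genes of the ATF4 response, tRNA charging and the endoplasmic reticulum (bottom) in each library, in CPM on a log axis, with 3 points and a mean bar per group for control (grey), knockdown (red) and PRGL493 (blue). FOS, FOSB, EGR1, EGR2, DUSP1 and HES1 descend from control to PRGL493 to knockdown, and ASNS, PSAT1, AARS and HSPA5 are low with PRGL493 only.

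The ATF4 stress response gave the highest median of the 43 lists other than the 2 of cell identity and lineage markers, with knockdown above PRGL493. ATF4 is a transcription factor made when amino acids run short or proteins misfold, and it switches on genes for amino acid synthesis, uptake and tRNA charging. Of 34 members 24 were higher in knockdown and 4 lower, with a median log2 fold change of 0.51. The rank is stated for the main fit. After removal of the length and GC trend the matrix and mesenchymal medians, given below, were above 0.51. ASNS, the asparagine synthetase on chromosome 7 (97851677 to 97928441), was at 393, 443 and 391 CPM in knockdown and 126, 126 and 130 CPM with PRGL493 (log2 1.68, SE 0.06, adjusted p = 1.1e-09). The control mean of 336 CPM lay nearer to knockdown than to treated cells. PSAT1 and PHGDH, enzymes of serine synthesis, showed 383, 404 and 381 against 147, 149 and 157 CPM (PSAT1, 1.37, SE 0.06, adjusted p = 2.4e-09) and 31.9, 38.7 and 33.5 against 10.4, 9.85 and 11.3 CPM (PHGDH, 1.72, SE 0.09, adjusted p = 3.0e-08). Control cells held 308 CPM of PSAT1 and 21.2 CPM of PHGDH. GDF15 was at 108, 133 and 118 CPM against 34.2, 32.6 and 34.1 CPM, with control cells at 152 CPM.

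Regulators of the response were higher as well, with DDIT3, or CHOP (log2 0.67), TRIB3 (0.83) and CEBPG (0.55) called. DDIT3 overlaps MARS, which is in the tRNA synthetase list, so their reads may be shared. The 4 lower members included ATF5 (-0.88), ATF3 (-0.78), which is also an immediate early gene, and SLC38A2 (-0.24). RNA of ATF4 itself, whose protein is controlled mainly by translation, was at 328, 391 and 345 CPM against 311, 320 and 303 CPM, and control cells held 303 CPM. The groups did not overlap but the difference was small (0.19, SE 0.07, adjusted p = 0.036), and the call was lost without knockdown replicate 2 (log2 0.11, edgeR adjusted p = 0.066) or 3 (0.064) and without PRGL493 replicate 1 (0.1), 2 (0.074) or 3 (0.13).

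The ASNS promoter is shown as the textbook site of ATF4 action, the CARE element. It was chosen after its values were seen. Capitals mark TGATGNAA, searched on both strands, in the 250 bases before the start given in the promoter table (RefSeq, GRCh38.p14), which lies within the longer span of the gene above.
ASNS (chr7:97872409-97872658, minus strand): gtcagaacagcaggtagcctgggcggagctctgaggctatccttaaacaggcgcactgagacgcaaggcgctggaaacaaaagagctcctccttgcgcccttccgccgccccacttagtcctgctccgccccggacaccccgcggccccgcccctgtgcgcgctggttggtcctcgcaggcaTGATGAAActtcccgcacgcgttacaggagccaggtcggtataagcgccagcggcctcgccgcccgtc
The match lay 68 to 61 bases before the start on the strand of the gene. The letters were found in 3 of 27 promoters of the ATF4 list (11.1%), 3 of 26 of the tRNA synthetase list (11.5%), 3.19% of all promoters in the table and 1.31% of those of genes tested.

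Lists of amino acid metabolism also leaned toward higher levels in knockdown. In serine and one-carbon synthesis 16 of 27 members were higher and 2 lower (median 0.27), with CTH, which makes cysteine (69.5 ± 3.79 against 35.5 ± 0.662 CPM, 0.97), the mitochondrial folate enzymes MTHFD2 (114 ± 5.56 against 65.7 ± 2.84 CPM, 0.79) and SHMT2 (0.77), and PYCR1 of proline synthesis (0.90) higher. Without knockdown replicate 3, or PRGL493 replicate 1 or 3, 1 member was lower. Several of these genes are in the ATF4 list too, so the lists are not separate counts. Of 21 amino acid transporters 11 were higher and 4 lower (median 0.21), with SLC43A1 (25.8 ± 0.988 against 13.9 ± 0.934 CPM, 0.89), the glutamine carriers SLC1A5 (461 ± 23.1 against 332 ± 1.59 CPM, 0.47) and SLC38A1 (0.56) among the higher. The cystine carrier SLC7A11 (-0.06) and SLC7A5 (0.08) were not called.

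Aminoacyl-tRNA synthetases charge tRNAs with their amino acids. Of 37 members 22 were higher in knockdown and 3 lower, with a median of 0.33. AARS, for alanine, was at 399, 434 and 420 CPM in knockdown and 179, 175 and 164 CPM with PRGL493 (log2 1.27, SE 0.06, adjusted p = 8.0e-09). WARS, for tryptophan, was at 267, 279 and 277 CPM against 128, 130 and 132 CPM (1.07, SE 0.05, adjusted p = 1.4e-08). Control means of 332 and 237 CPM lay nearer to knockdown in both. IARS (743 ± 3.6 against 392 ± 9.74 CPM, 0.92), MARS (0.99), SARS (0.85) and GARS (0.75) were the next in order of adjusted p. The mitochondrial enzymes were mostly not called, among them RARS2 (-0.01), VARS2 (-0.00) and LARS2 (0.17), while NARS2 (0.57) and IARS2 (0.34) were higher and SARS2 was lower (-0.57). HARS was lower too (-0.30).

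Chaperones of the endoplasmic reticulum had 18 of 29 members higher and 1 lower, with a median of 0.23. HSPA5, or BiP, was at 3302, 3357 and 3238 CPM in knockdown and 1758, 1790 and 1766 CPM with PRGL493 (log2 0.90, SE 0.05, adjusted p = 5.9e-08), with control cells at 3724 CPM. HSP90B1 (2241 ± 56.3 against 1498 ± 48 CPM, 0.58), HYOU1 (524 ± 19.2 against 344 ± 16.2 CPM, 0.61) and PDIA4 (0.55) were higher. The lower member was DERL1 (-0.20).

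Cytosolic ribosomal proteins were higher in knockdown in 62 of 79 cases and lower in 0, with a median log2 fold change of 0.35 and no 2-fold difference. At an unadjusted p below 0.05 edgeR listed 1 lower member, and DESeq2 and limma-voom called 0. The lower count was 1 in the fit with replicate numbers as a block and in that with the length and GC trend removed, and 2 without knockdown replicate 2. RPL3 was at 1099, 1267 and 1139 CPM in knockdown and 817, 807 and 792 CPM with PRGL493 (0.54, SE 0.06, adjusted p = 2.2e-05), with control cells at 1065 CPM. RPL41 was at 157, 149 and 125 CPM against 86, 79.8 and 85.8 CPM (0.77, SE 0.08, adjusted p = 9.3e-06). RPL9 was at 442, 530 and 457 CPM against 320, 297 and 315 CPM (0.62, SE 0.07, adjusted p = 2.1e-05), and it overlaps LIAS. RPL28 (-0.01) and RPS14 (0.02) stayed near 0. Ribosomal protein genes have many processed pseudogenes that can share their reads.

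The list stood highest in the library in which short transcripts were high. Its median deviation from its mean over the 6 libraries was 0.31 in knockdown replicate 2, against 0.05 and 0.12 in replicates 1 and 3. It was -0.12, -0.25 and -0.15 in the PRGL493 libraries, so the groups did not overlap. Without knockdown replicate 2 the list had 60 higher and 2 lower with a median of 0.25. With the length and GC trend removed it had 43 higher and 1 lower, and the median went from 0.35 to 0.17.

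The promoters of the 3 ribosomal protein genes with the smallest adjusted p are shown because this list had the largest share of members called higher in knockdown. Capitals mark CCAAT on either strand (RPL41, RPL9) or the cAMP response element letters TGACGTCA, searched on both strands (RPL3), in the 250 bases before the gene start (RefSeq, GRCh38.p14).
RPL41 (chr12:56116383-56116632, plus strand): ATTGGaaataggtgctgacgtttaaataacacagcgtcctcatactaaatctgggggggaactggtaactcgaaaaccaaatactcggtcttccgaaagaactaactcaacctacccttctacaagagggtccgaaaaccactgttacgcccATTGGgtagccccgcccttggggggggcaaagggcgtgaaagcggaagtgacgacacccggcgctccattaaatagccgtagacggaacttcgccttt
RPL9 (chr4:39458923-39459172, minus strand): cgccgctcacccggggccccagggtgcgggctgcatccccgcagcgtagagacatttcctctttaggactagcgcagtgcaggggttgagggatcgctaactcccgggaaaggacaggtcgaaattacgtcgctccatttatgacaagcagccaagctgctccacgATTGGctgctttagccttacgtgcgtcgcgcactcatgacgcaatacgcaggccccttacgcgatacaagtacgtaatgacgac
RPL3 (chr22:39319624-39319873, minus strand): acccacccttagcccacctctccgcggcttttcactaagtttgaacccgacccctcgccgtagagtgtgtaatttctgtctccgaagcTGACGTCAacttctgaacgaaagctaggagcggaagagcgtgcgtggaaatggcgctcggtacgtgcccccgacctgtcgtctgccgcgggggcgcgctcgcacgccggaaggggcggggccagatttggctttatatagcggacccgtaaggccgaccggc
CCAAT was found in 19 of the 63 promoters of the list in the table (30.2%), near the 33% of all promoters. TGACGTCA was found in 3 of the 63 (4.76%), in 1.77% of all promoters and in 2.85% of those of genes tested. Each promoter shown in this report was searched for all the motifs named, and those that matched are in capitals. CArG boxes were as frequent in this list, in 3 of the 63 (4.76%), against 0.961% of promoters of genes tested. TGATGNAA was in 2 (3.17%) and TCACNCCAC in 1 (1.59%).

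Mitochondrial ribosomal proteins and the nuclear-encoded subunits of oxidative phosphorylation were also higher more often than lower. The first list had 39 of 78 members higher and 4 lower (median 0.23), led by MRPS18B (74.4 ± 5.77 against 47.4 ± 1.84 CPM, 0.65) and MRPS9 (0.62). The second had 41 of 78 higher and 3 lower (median 0.23), with NDUFV1 of complex I (109 ± 8.94 against 81.4 ± 3.07 CPM, 0.42), COX7A2L (0.44) and ATP5L of the ATP synthase (0.36) among them. COX6C was among the lower members (-0.25). With the length and GC trend removed the counts became 29 higher and 11 lower (median 0.09) for mitochondrial ribosomal proteins and 22 higher and 16 lower (median 0.06) for oxidative phosphorylation. Without knockdown replicate 2 they were 36 and 10 (median 0.16) and 38 and 6 (median 0.14). Without PRGL493 replicate 2 oxidative phosphorylation had 27 higher and 3 lower, and without knockdown replicate 3, or PRGL493 replicate 1 or 3, it had 1 lower.

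**Figure D4:**
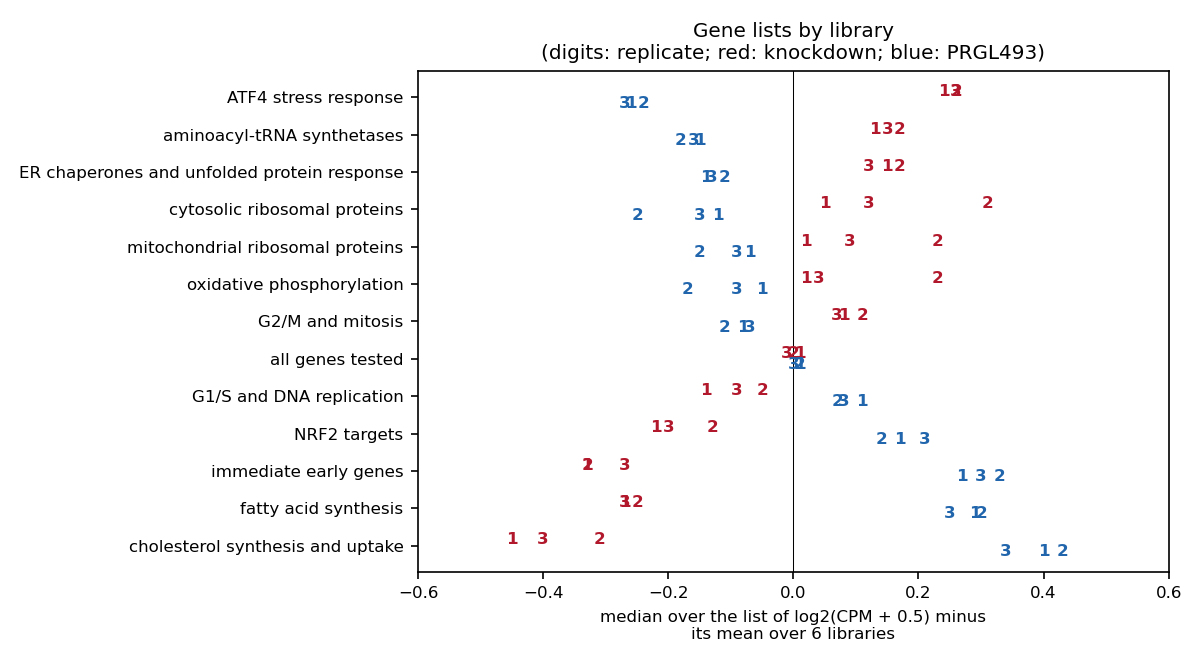
For 12 gene lists and all genes tested, each digit gives a library (1 to 3, red for knockdown, blue for PRGL493) at the median over the list of log2(CPM + 0.5) minus the mean of each gene over the 6 libraries. The 6 libraries separate by group in each of the 12 lists, and knockdown replicate 2 stands to the right of the other knockdown libraries in the ribosomal (0.31 against 0.05 and 0.12), mitochondrial ribosomal and oxidative phosphorylation lists.

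Glycolysis and hypoxia genes were mixed, with 12 higher and 19 lower of 39 in knockdown (median log2 -0.15). Enzymes of the glycolytic chain made up much of the lower side, with PFKL (-0.59), HK1 (-0.53), PKM (-0.41), ALDOA (-0.36) and LDHA (-0.30), and ALDOC was at 23.3 ± 2.23 against 43.1 ± 0.609 CPM (-0.89). Higher members included the prolyl hydroxylase EGLN3 (93.6 ± 2.54 against 57.1 ± 1.85 CPM, 0.71), the carbonic anhydrases CA12 (76.1 ± 2.41 against 46 ± 2.72 CPM, 0.73) and CA9 (0.79), and SLC16A1. The prolyl hydroxylase EGLN1 was lower (115 ± 4.62 against 171 ± 11.4 CPM, -0.58).

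Cell cycle genes were lower in G1/S more often than higher, and the reverse in G2/M. Of 49 members of G1/S and DNA replication 24 were lower in knockdown and 3 higher (median -0.17, and -0.11 with upper-quartile factors). LIG1, the replicative ligase (28.1 ± 0.976 against 45.8 ± 1.93 CPM, -0.71), RRM2, a ribonucleotide reductase subunit (74.6 ± 2.19 against 106 ± 3.27 CPM, -0.51), the cyclins CCND1 (-0.46) and CCNE2 (-0.76), and MCM4 of the replicative helicase (-0.43) were lower, and CDC6, which loads that helicase, was higher (0.46). For LIG1, RRM2 and MCM4 the control means of 28.3, 72.1 and 74.9 CPM were near the knockdown level. Of 50 members of G2/M and mitosis 26 were higher and 3 lower (median 0.19), with MYBL2 (108 ± 6.95 against 69.7 ± 1.63 CPM, 0.64), the anaphase activator CDC20 (0.49), PTTG1 (0.51) and UBE2C (0.52) higher and INCENP lower (-0.49). The count of higher members was 17 without PRGL493 replicate 1 or without PRGL493 replicate 2.

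Textbook p53 targets had 14 of 30 members lower in knockdown and 3 higher (median -0.15). CDKN1A, which encodes the cyclin-dependent kinase inhibitor p21 (156 ± 14.9 against 240 ± 6.5 CPM, log2 -0.62), BTG2, an antiproliferative factor (4.44 ± 0.176 against 10.5 ± 0.591 CPM, -1.24), PLK2 (201 ± 5.2 against 318 ± 2.74 CPM, -0.66) and RRM2B (-0.89) were lower, and all 4 had control means above the knockdown mean. MDM2 (-0.02) and BAX (-0.08) were not called. Of 53 matched replication-dependent and related histone genes 11 passed the low-count filter, 7 of which were lower and 1 higher. HIST2H2BE was at 2.55, 1.01 and 2.12 CPM against 13.1, 13.8 and 13.2 CPM (-2.80, SE 0.22, adjusted p = 1.2e-05), with control cells at 25 CPM. H1F0, a linker histone made outside S phase, was the higher member (837 ± 14.2 against 445 ± 3.18 CPM, 0.91). HIST2H2AA4 (-2.64, not called) and HIST2H4B (-3.89, resting on 6 knockdown and 81 PRGL493 counts) have near-identical copies and are uncertain.

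The title of the series ties ACSL4 to acetylation of histone H3. Acetyltransferases and readers of acetylated histones had 17 of 27 members lower in knockdown and 0 higher, with a median of -0.29, and the count of 0 higher held at an unadjusted p below 0.05 in edgeR and in every alternative run, DESeq2 and limma-voom included. NCOA2 (13 ± 1.44 against 21 ± 1.82 CPM, log2 -0.69), KAT5 (42.4 ± 2.99 against 56.4 ± 1.21 CPM, -0.41), KAT2A (41.9 ± 0.981 against 53.7 ± 3.21 CPM, -0.36), KAT2B (-0.40) and the reader BRD2 (239 ± 11 against 304 ± 13.3 CPM, -0.35) were among them. The co-activators EP300 (-0.61) and CREBBP (-0.44) were not called. Without PRGL493 replicate 1 the count of lower members was 11. Deacetylases had 10 of 24 lower and 3 higher (median -0.15), a called share of 54.2% against 46.3% of all genes tested. SIRT2 (27.1 ± 0.965 against 42.4 ± 1.09 CPM, -0.65) and HDAC5 (-0.44) were lower and HDAC2 was higher (182 ± 4.52 against 148 ± 8.09 CPM, 0.29). HDAC1 (-0.02) was not called. Removal of the length and GC trend left 6 deacetylases higher and 9 lower (median -0.08), and upper-quartile factors 5 higher (median -0.09).

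Of 12 transcription factors of epithelial-mesenchymal transition 6 passed the filter, of which 2 were lower in knockdown and 0 higher (0 also at an unadjusted p below 0.05 in edgeR, and with DESeq2 and limma-voom). There was 1 higher without knockdown replicate 2, with upper-quartile factors and after removal of the length and GC trend. The called share was 33.3%, against 46.3% of all genes tested, and 23.9% of all genes were lower. SNAI2, or SLUG (27.4 ± 1.15 against 33.4 ± 1.86 CPM, log2 -0.29, adjusted p = 0.0051), and FOXC1 (15.8 ± 1.21 against 24.1 ± 2 CPM, -0.61, adjusted p = 1.1e-04) were the lower ones, and control cells held 51.8 and 21.7 CPM. ZEB1 (0.18, adjusted p = 0.10) and ZEB2 (-0.21, adjusted p = 0.13) were not called. Mesenchymal genes were higher in 15 of 21 cases and lower in 3 (median 0.36). Beside COL1A2 and TNC these included the integrin ITGA5 (411 ± 18.8 against 226 ± 9.47 CPM, 0.86), the collagen cross-linking enzyme LOX (235 ± 7.44 against 132 ± 7.69 CPM, 0.83), and the cadherins CDH2 (0.89) and CDH11 (0.31). VIM, or vimentin, was not called (1722 ± 101 against 1689 ± 15.1 CPM, 0.03, adjusted p = 0.71), and CD44 (-0.28) and S100A4 (-0.45) were lower. ACTA2, which marks smooth muscle and fibroblasts and was among the lineage markers, was higher (6.88 ± 0.605 against 4.25 ± 0.309 CPM, 0.69).

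Epithelial genes were also higher more often than lower, in 12 and 6 of 23 cases (median 0.23). CLDN7, a claudin, was at 96.8, 119 and 107 CPM in knockdown and 37, 35.4 and 31.4 CPM with PRGL493 (log2 1.64, SE 0.09, adjusted p = 2.7e-08), with control cells at 81.4 CPM. EPCAM, the epithelial adhesion molecule, was at 30.5, 30.5 and 30.7 CPM against 10.6, 8.76 and 10.7 CPM, on both sides of the control mean of 18.3 CPM (1.61, SE 0.09, adjusted p = 2.9e-08). CLDN1 was higher (56.3 ± 3.45 against 21.9 ± 1.27 CPM, 1.36). CDH1, or E-cadherin, was barely expressed, at 1.93, 1.7 and 1.21 CPM against 0.881, 0.422 and 0.685 CPM (1.24, SE 0.28, adjusted p = 0.0031), and ESRP1, a splicing regulator, rested on 94 knockdown and 6 PRGL493 counts. The keratins KRT19 (364 ± 41.9 against 532 ± 6.26 CPM, -0.55) and KRT8 (-0.36) were lower. KRT8 overlaps the keratin gene KRT18, so their reads may be shared. KRT18 was not lower, at 374 to 444 CPM in knockdown libraries and 362 to 369 CPM in PRGL493 libraries. With the length and GC trend removed and replicate numbers as a block 15 epithelial genes were higher and 3 lower (median 0.40).

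Matrix genes stood higher in knockdown in 22 of 38 cases and lower in 3 (median 0.33), a list that shares COL1A2, TNC and others with the mesenchymal one. The laminin chains LAMB1 (435 ± 22.6 against 250 ± 9.22 CPM, log2 0.80) and LAMB3 (0.58), thrombospondin THBS1 (3176 ± 9.47 against 1693 ± 91 CPM, 0.91) and the basement membrane collagens COL4A1 (0.39) and COL4A2 (0.43) were higher. FBLN1 (-1.12) and LUM (-0.82) were lower. Removing the length and GC trend gave 31 higher members and 3 lower ones, with a median of 0.54, and the mesenchymal median was 0.56. Among proteases and their inhibitors 13 of 29 were higher and 5 lower (median 0.13, and 0.25 after removal of the length and GC trend), with TIMP3 (303 ± 1.54 against 183 ± 3.39 CPM, 0.72), SERPINE2 (0.93), SERPINB9 (0.67) and the low-level genes SERPINB2 (4.18 ± 0.747 against 0.453 ± 0.153 CPM, 3.24) and MMP9 (2.00) higher, and MMP1 not called (0.03). Integrins had 4 higher and 4 lower of 16 (25% each), near the 22.4% higher and 23.9% lower of all genes tested. ITGA6 (0.43) and ITGB2 (1.10) were higher and ITGA1 (-0.40) and ITGB5 (-0.26) lower.

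**Figure D5:**
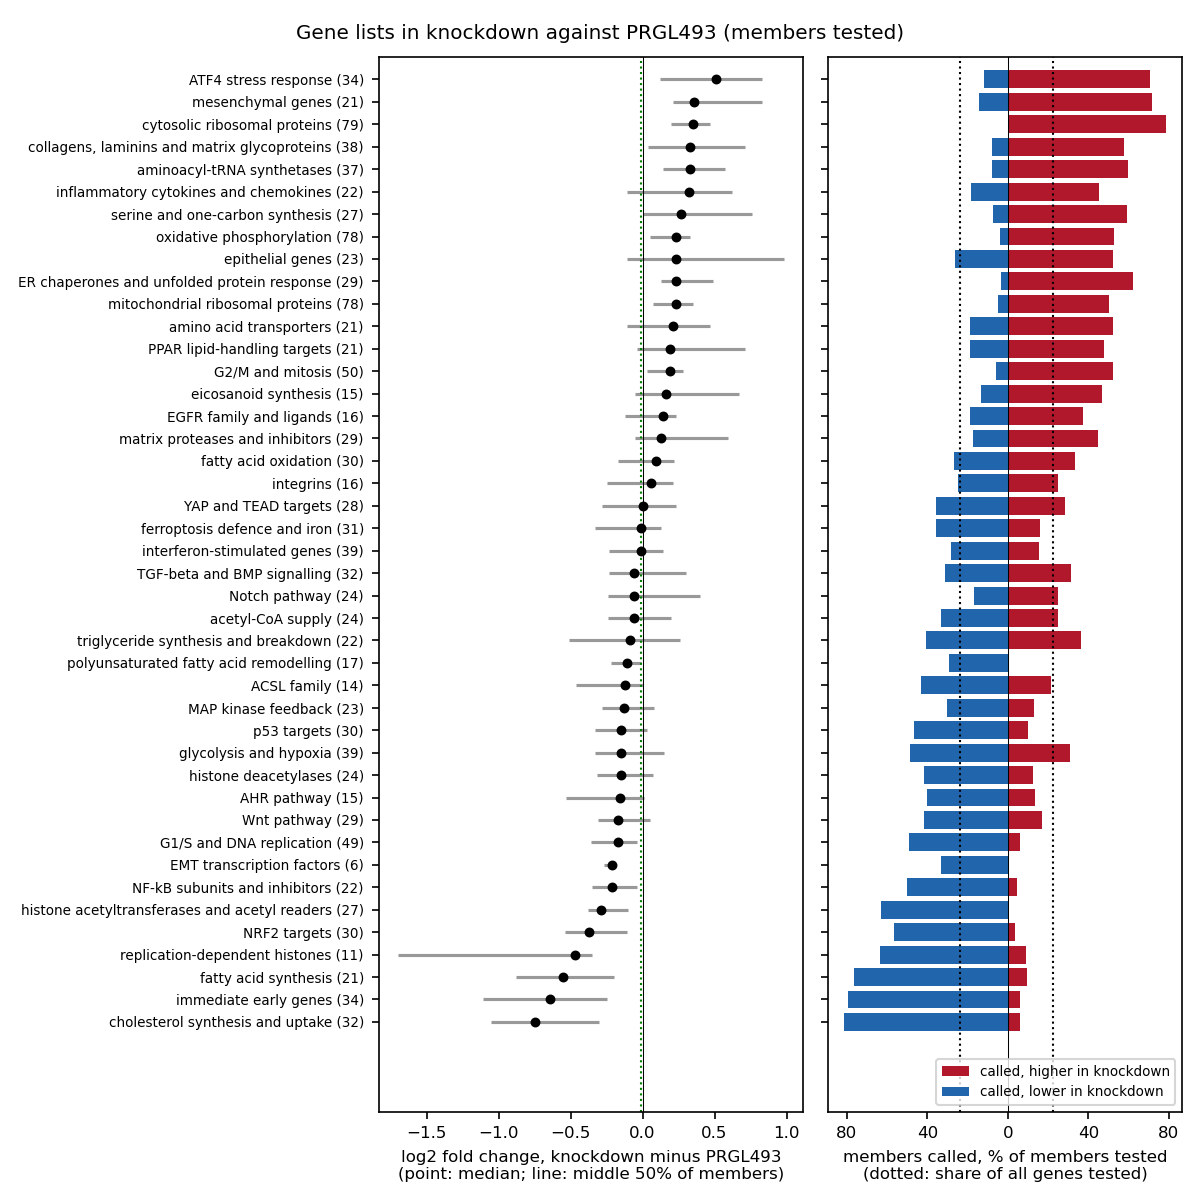
For each of 43 gene lists (members tested in brackets), the left panel gives the median log2 fold change, knockdown minus PRGL493, with the middle 50% of members as a line, and the right panel the percentage of members called higher (red) and lower (blue) in knockdown. Dotted lines give the same over all genes tested (median -0.01, 22.4% higher, 23.9% lower), and the ATF4 list (0.51) and the cholesterol list (-0.75) form the ends.

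Inflammatory cytokines and NF-kB genes went apart. Of 22 cytokines and chemokines 10 were higher in knockdown and 4 lower (median log2 0.32). IL1A was at 338, 362 and 329 CPM against 92.4, 91.2 and 95.1 CPM (1.88, SE 0.06, adjusted p = 2.9e-10), with control cells at 396 CPM. IL11 (24.6 ± 2.4 against 8.44 ± 0.701 CPM, 1.54), CSF2 (53.3 ± 7.93 against 29.6 ± 0.82 CPM, 0.85) and IL32 (0.64) were higher, LIF (-0.41) and CSF1 (-0.31) were lower, and IL6 (-0.12) and IL1B (-0.04) were not called. After removal of the length and GC trend the counts were 9 and 7 and the median 0.15, and without knockdown replicate 2 the median was 0.21. Of 22 NF-kB subunits, inhibitors and regulators 11 were lower and 1 higher (median -0.21), with 2 higher without knockdown replicate 2 and 3 (median -0.13) after removal of the length and GC trend. NFKBIZ, an inducible NF-kB cofactor, was at 52.2, 48.2 and 51.2 CPM against 94.6, 99.4 and 93.5 CPM (-0.92, SE 0.06, adjusted p = 2.2e-07), both under the control mean of 314 CPM. NFKB1 (-0.47) and RELA (-0.37) were lower and BCL3 was higher (0.27).

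Targets of NRF2, the regulator of antioxidant genes, were lower in knockdown in 17 of 30 cases and higher in 1 (median -0.37), with 2 higher without knockdown replicate 1 and 3 after removal of the length and GC trend. The pentose phosphate enzymes PGD (log2 -0.55) and TKT (-0.50), the glutathione enzymes GCLC (39.5 ± 1.58 against 58.8 ± 1.85 CPM, -0.58) and GSR (-0.43), the thioredoxin reductase TXNRD1 (1785 ± 12.6 against 2425 ± 24.2 CPM, -0.44) and the haem oxygenase HMOX1 (-0.77) were lower. NFE2L2, which encodes NRF2, was lower as well (-0.31), and BLVRB was the higher member (0.74). Of 31 genes of ferroptosis defence and iron handling 11 were lower and 5 higher with a median of -0.01 (between -0.03 and 0.05 over the alternatives, with 3 higher without PRGL493 replicate 3), and ACSL4, the targeted gene, was 1 of the lower ones. The called share of this list was 51.6%, against 46.3% of all genes tested. FTL, the ferritin light chain (-0.55), and NCOA4, the ferritin receptor of autophagy (206 ± 5.16 against 281 ± 7.08 CPM, -0.45), were lower, while the lipid hydroperoxide reductase GPX4 (0.11) and AIFM2 (0.09) were not called.

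The AHR pathway, by which cells respond to many planar compounds, had 6 of 15 members lower in knockdown and 2 higher (median -0.16, and -0.10 after removal of the length and GC trend). The called share was 53.3%, against 46.3% of all genes tested. CYP1B1, a cytochrome P450, was at 541, 486 and 499 CPM in knockdown and 927, 956 and 1023 CPM with PRGL493 (log2 -0.93, SE 0.06, adjusted p = 2.1e-07), with control cells at 391 CPM. CYP1A1 (15.2 ± 1.95 against 26.7 ± 1.09 CPM, -0.81) and TIPARP (151 ± 3.24 against 223 ± 3.51 CPM, -0.56) were lower too, and AHRR, the repressor of the pathway, was higher (15.4 ± 1.21 against 8.2 ± 0.521 CPM, 0.92). AHR itself was not called (265 ± 12 against 294 ± 36.2 CPM, -0.15, adjusted p = 0.13). CYP1B1 overlaps its antisense gene and RMDN2.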

How the data were processed

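RNA was extracted with Trizol and libraries were made by an Illumina protocol, per the labels. The authors deposited a table of 26475 rows of gene symbols with estimated counts per library, deposited without scaling for depth. Of these expected counts, 10.5% were not whole numbers. The submitters' processing notes name GRCh38. Aligner, counting tool, annotation and strand use: not given in the sources used here. Symbols in 28 rows had become dates. These rows held 0.236% to 0.258% of the counts of each library and stayed in totals and tests without being named.

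Counts were rounded to whole numbers, since the design had assumed whole counts, filtered with edgeR's filterByExpr (14061 genes in the 6 libraries) and scaled by TMM. A quasi-likelihood model (edgeR 4.0.16, limma 3.58.1, R 4.3.3) with group as its only term was fitted to the 6 libraries, which left 4 residual degrees of freedom, and gave 7.2% as the common biological coefficient of variation. Benjamini-Hochberg adjustment ran over all genes tested, and every adjusted p comes from this test. The script was tested on simulated data first. Of 1468 members of 45 lists 1463 matched a row. Lists are described by counts and medians, with no set test. Every list count is to be read beside the 22.4% higher and 23.9% lower of all genes tested. The members and lists were chosen with earlier results of these data known.

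Named genes were ACSL4, SNAI1, the 15 called protein-coding genes per direction with the largest log2 fold change among genes averaging a log2 CPM of 2 or more with no overlap between groups, up to 6 called members of each list with the smallest adjusted p, and SREBF1, SREBF2, ESR1, PGR, ERBB2, CDH1, VIM, ATF4 and AHR. Other list members named were chosen after their values were seen. Coordinates and promoters are RefSeq's on GRCh38.p14. Alternatives were other scalings, filters and tests (DESeq2 1.42.0, limma-voom), a fit of all 9 libraries, a replicate block, removal of a length and GC trend, an adjusted p below 0.01, and leaving out each library. The cutoff of 0.01 was applied to the counts over all genes, not to lists or named genes. Knockdown and PRGL493 libraries of the same replicate number did not deviate together, so the numbers were not used as pairs. Some members of the lists are not reported here by name.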

Additional observations from a re-analysis of the deposited data

How the results depend on the processing

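Of the 258 genes named by rule 255 were called, and none of these changed direction in an alternative that gave a value. Of the 255, 249 were called in every such alternative, and PLA2G15, STAT2, HIST1H1C, GFAP, PMEL and ATF4 lost the call in at least 1. VIM, not called, went from 0.03 to -0.01 without knockdown replicate 2. Of all 765 called list members 545 were called in every such alternative and 220 lost the call in at least 1, among them ELOVL7 and EGFR of those named here, and 8 changed direction. The count of genes at least 2-fold higher in knockdown went from 448 to 273 when genes needed at least 1 CPM in 3 libraries, a filter that tests fewer weakly expressed genes. Leaving out each library in turn gave 2429 to 3432 genes higher and 2611 to 3680 lower, of which 433 to 477 and 168 to 239 differed at least 2-fold. With the replicate block, which rests on shared numbers alone since same-numbered libraries correlated at -0.06, -0.058 and -0.046, 2906 genes were higher and 3237 lower, and 454 and 189 differed at least 2-fold. ATF4 then had an edgeR adjusted p of 0.059, and between 0.064 and 0.13 without any 1 of knockdown replicates 2 and 3 and the 3 PRGL493 libraries. At an adjusted p below 0.01, 2128 genes were higher and 2328 lower. Depth limits genes near the filter, such as ESRP1 and HIST2H4B, more than the abundant ones. The 3 batches of 1 hairpin line and 1 unstated drug exposure do not cover other hairpins, doses or cell lines.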

Other observations

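Signalling lists beyond those above held few large differences. In TGF-beta and BMP signalling 10 of 32 members were higher in knockdown than with PRGL493 and 10 lower, with a median log2 fold change of -0.06 (0.01 with the length and GC trend removed, and -0.07 to 0.00 when 1 library was left out, with -0.02, -0.03 and 0.00 without PRGL493 replicate 1, PRGL493 replicate 3 and knockdown replicate 3). Each direction held 31.2% of the members, against 22.4% higher and 23.9% lower of all genes tested. SMAD3, which carries the TGF-beta signal, was lower (212 ± 16.8 against 366 ± 13.9 CPM, -0.79, SE 0.07, edgeR adjusted p = 1.5e-06). The BMP-induced inhibitors of differentiation ID1 (57.7 ± 4.7 against 37.9 ± 0.352 CPM, 0.61), ID2 (1.01) and ID3 (12.1 ± 1.18 against 6.43 ± 0.204 CPM, 0.91) were higher. In the Wnt pathway 5 of 29 members were higher and 12 lower (median -0.17, and 9 and 11 with a median of -0.02 once the length and GC trend was removed). There were 3 higher without knockdown replicate 3 and without PRGL493 replicate 1 or 2, and the median was -0.11 without the last. The secreted Wnt inhibitors SOST (16.4 ± 0.559 against 8.59 ± 0.441 CPM, 0.93) and DKK1 (452 ± 43 against 327 ± 6.3 CPM, 0.47) were higher, and GSK3B was lower (32.1 ± 2.54 against 49.4 ± 2.64 CPM, -0.62). Control cells held 44.9 CPM of SOST, more than either group.

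Interferon-stimulated genes showed no common direction. Of 39 members 6 were higher and 11 lower (43.6% called against 46.3% of all genes tested) with a median of -0.01, and with upper-quartile factors the counts were 9 and 7 and the median 0.05. Without knockdown replicate 3 they were 5 and 7, without PRGL493 replicate 1 they were 4 and 7, and without PRGL493 replicate 2 they were 5 and 7. GBP1 (34.7 ± 0.953 against 50.5 ± 1.8 CPM, -0.54), IRF7 (-0.63) and SAMD9 (-0.47) were lower, and MX1 (42.2 ± 2.56 against 33.9 ± 1.05 CPM, 0.31) and OASL (0.56) were higher. Among the markers of other lineages, CD68 (147 ± 5.78 against 96.2 ± 4.69 CPM, 0.61) and CD14 (37.3 ± 3.63 against 21.1 ± 1.36 CPM, 0.82) were higher in knockdown, while the leukocyte marker PTPRC stayed at or below 0.0795 CPM in all 6 libraries.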
